A study of Homo sapiens with 40 samples.

Results

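In senescent EndoC-βH3 cells, 282 of the 2435 regions that the authors listed as bound by the retinoblastoma protein Rb specifically in senescence lay at promoters, or 11.6% of the list. The 282 regions were chosen by position, as those that overlapped by at least 1 bp a window of 2 kb on either side of a start site of any protein-coding transcript (hg38, GENCODE 44). They touched the windows of 308 of 19689 protein-coding genes, which is 1.56% of these genes. Of the remaining regions, 991 lay in dense 1 Mb bins that held at least 10 Rb regions each, and 1162 were scattered over the rest of the genome. The list itself was made by comparing senescent with non-senescent Rb libraries, so that the presence of Rb here is what selected the regions and is not a result, and the list gives positions alone, without a height or a p-value for any region.

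Chromatin immunoprecipitation followed by sequencing (ChIP-seq) was carried out on EndoC-βH3, a human pancreatic beta cell line labelled as WT. The line grows because of immortalizing transgenes that its own tamoxifen-activated Cre recombinase can excise. The paper names these as hTERT and the SV40 Large T-antigen, to which Rb and p53 are bound and by which both are inhibited. Senescent cells had been treated with 4-hydroxytamoxifen (4-OHT) for 3 weeks, at a dose given as 1 mM in the labels and as 1 μM in the study's methods, and non-senescent cells were controls without it. Both states share the line and the number of cells per sample. All senescent samples carry the treatment and the excision of the immortalizing transgenes as well as the senescent state. In the Rb list, loss of the T-antigen that binds Rb therefore cannot be told apart from the senescent state. The labels do not say whether samples came from separate cultures. The marks used here were Rb (2 senescent and 2 non-senescent libraries), H3K27ac (3 and 3), CTCF (3 and 3) and H3K4me1 (2 and 2), each library with an input of its own. The tables give means over both states and the authors' own comparison of them, which was not used, so that no level is compared between the states here. They hold no value or total per library, and the authors' means summed over peaks came to 19239499 normalized counts for H3K27ac and 6136424 for CTCF. The label of the line was checked on H3K27ac at the promoters of marker genes, where a peak was found for 10 of 10 beta cell markers, against 4 of 5 alpha cell, 3 of 4 delta and PP cell, 2 of 4 duct, 1 of 5 acinar, 1 of 4 stellate, 1 of 4 immune and 0 of 3 endothelial cell markers.

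Rb is a pocket protein that is brought to DNA by E2F transcription factors and, together with them, holds down genes needed for DNA replication and mitosis. In its unphosphorylated form, which prevails when cyclin-dependent kinases are inhibited, it stays on chromatin and is one of the proteins that keep a senescent cell out of the cell cycle. Promoters of cell cycle genes often carry an E2F site near the start of transcription, and those of genes expressed in mitosis a CHR element together with CCAAT boxes. H3K27ac, an acetylated histone, marks active promoters and enhancers, and CTCF is a zinc finger protein that halts cohesin and anchors chromatin loops.

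Genes of the cell cycle program that Rb and E2F are known to control were among the 308, including CDK1, the kinase that drives entry into mitosis, CDT1, which loads the replicative helicase onto origins, and POLD3, a subunit of DNA polymerase delta. Stretches of these regions are shown so that the elements can be seen in place. They are the plus strand of hg38, with matches to an E2F site, an E2F core, a CHR element or a CCAAT box in capitals. Stretches were limited to 300 bases and to 30 bases of untranslated exon, so that some regions are shown in part.
CDK1 promoter, chr10:60778193-60778360: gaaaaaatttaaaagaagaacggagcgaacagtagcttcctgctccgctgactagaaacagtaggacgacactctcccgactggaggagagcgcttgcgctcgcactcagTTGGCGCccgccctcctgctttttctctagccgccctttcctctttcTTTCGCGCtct
CDT1 promoter, chr16:88803757-88803818: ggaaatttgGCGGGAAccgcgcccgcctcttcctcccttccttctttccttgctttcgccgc
POLD3 promoter, chr11:74592488-74592611: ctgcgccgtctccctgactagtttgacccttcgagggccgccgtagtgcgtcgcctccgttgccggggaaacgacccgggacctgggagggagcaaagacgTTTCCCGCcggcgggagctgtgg
In the CDK1 stretch the capitals mark an E2F core 25 bp before the start site and an E2F site, spelled TTTCGCGC, 23 bp after it. The unprinted rest of the CDK1 region held a CHR element 81 bp and CCAAT boxes 71 and 103 bp downstream of the start site. In CDT1 the core lay 20 bp upstream of the start site, and in POLD3 the site, spelled TTTCCCGC, lay 12 bp upstream.

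The 269 bp region at CDK1 (chr10:60778193-60778461) covered the start site, with its centre 4 bp upstream, and overlapped an H3K27ac peak of 3572 bp but no CTCF peak. That H3K27ac peak had an authors' mean of 408 normalized counts, which is the mean over 3 senescent and 3 non-senescent libraries of reads divided by DESeq2 size factors. The 152 bp region at CDT1 (chr16:88803757-88803908) also covered a start site, in an H3K27ac peak with a mean of 377 counts. At POLD3 (chr11:74592488-74592735) a region of 248 bp was centred 7 bp downstream of the start site and its H3K27ac peak had a mean of 569 counts. All 3 means, taken over the 6 libraries of both states, lay below the median of 1178 counts among the peaks that held a promoter Rb region. Beside the median of 448 counts among all promoter peaks, those at CDK1 and CDT1 were lower and that at POLD3 was higher.

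Among the study's own signatures, 6 of 195 E2F target genes (3.08%) had an Rb region at the promoter, and 4 of these, CDK1, CKS2, CTCF and POLD3, were also the 4 of 92 cell cycle genes (4.35%), beside 1.56% of all protein-coding genes. The other E2F targets were SMC1A, which encodes a core subunit of cohesin, and SNRPB, which encodes a core protein of spliceosomal ribonucleoproteins. H3K27ac peaks lay at the promoters of 193 of the 195 E2F targets, and the Rb list held few of them. Such peaks also lay at all 92 cell cycle genes and at 159 of 168 chromatin modifier genes, against 13065 of 19689 protein-coding genes. Of those 13065 marked genes 304 had an Rb region, a larger share than 1.56%. Comparisons of gene lists with 1.56%, here and below, do not allow for this. The regions of the 6 E2F targets differed in place. Those of CDK1 and POLD3 covered a start site, while the region at CKS2, whose product binds cyclin-dependent kinases, was centred 666 bp upstream, that of CTCF 432 bp downstream in an intron, that of SNRPB 205 bp downstream and that of SMC1A 203 bp upstream. All 6 lay in H3K27ac peaks, with authors' means from 408 counts at CDK1 to 2093 counts at CKS2, and only the region at the CTCF gene also lay in a CTCF peak, one of 393 counts. The stretches from SNRPB and SMC1A contrast an intronic E2F site with a promoter that holds CCAAT boxes and no E2F match.
SNRPB promoter, chr20:2470427-2470720: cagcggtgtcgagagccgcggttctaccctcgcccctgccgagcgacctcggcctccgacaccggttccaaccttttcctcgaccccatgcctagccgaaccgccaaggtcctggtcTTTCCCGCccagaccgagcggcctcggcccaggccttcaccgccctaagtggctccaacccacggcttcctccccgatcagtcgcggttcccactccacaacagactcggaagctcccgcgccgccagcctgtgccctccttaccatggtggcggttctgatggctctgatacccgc
SMC1A promoter, chrX:53422237-53422514: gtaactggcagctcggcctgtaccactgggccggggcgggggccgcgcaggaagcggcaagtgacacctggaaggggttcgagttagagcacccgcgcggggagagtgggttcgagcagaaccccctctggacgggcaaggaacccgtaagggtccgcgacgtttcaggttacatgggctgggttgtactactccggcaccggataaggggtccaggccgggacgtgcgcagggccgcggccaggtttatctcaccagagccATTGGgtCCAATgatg
The site in SNRPB, again TTTCCCGC, lay 241 bp downstream of the start site, and the CCAAT boxes at SMC1A lay 328 and 335 bp upstream of it, on opposite strands.

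Further genes of the cell division machinery were found by lists drawn up from gene symbols. The group of cyclins, cyclin-dependent kinases and their inhibitors held 5 genes with an Rb region among 53 (9.43%), of which CDK1 is the only one with a direct role in mitotic entry. CCNC encodes the cyclin of the Mediator kinase module, and CCNI, CCNJ and CCNY encode atypical cyclins. The region at CCNC covered the start site in an H3K27ac peak of 494 counts, and that at CCNY covered a start site in a peak of 733 counts. At CCNJ the region was centred 166 bp downstream in a peak of 695 counts with a weak CTCF peak of 18.97 counts. The region at CCNI was unlike these, 1630 bp from the nearest start site, with a GC content of 27.03% and in no peak of either mark.
CCNI promoter, chr4:77054272-77054419: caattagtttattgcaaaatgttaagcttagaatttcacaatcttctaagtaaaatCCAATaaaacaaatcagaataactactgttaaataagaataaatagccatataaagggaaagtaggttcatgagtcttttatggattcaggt
This stretch is the whole CCNI region, shown as an example of the AT-rich members, with a CCAAT box as its only match in capitals.

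The counts in the other division lists were small and are to be read beside the 1.56% of all genes. No region was listed at a promoter of the 22 DREAM, Rb and E2F complex genes, which include the genes of E2F factors and pocket proteins, a list too short for that share to give 1 gene. Of 25 replication licensing genes only CDT1 had one, and of 110 DNA polymerase, replication and repair genes 2 did, POLD3 and LIG3, which encodes a DNA ligase. The region near LIG3 was a short one of 51 bp, in the intron of a gene. Its nearest start site, 462 bp away, was that of CCT6B, whose promoter window it also touched. The symbol list of mitosis genes held 3 of 114. Of these, KIF5B and KIF21A are kinesins of intracellular transport rather than of the spindle, which leaves SMC1A within the list. The list is not complete, since it did not hold NSL1, a kinetochore protein gene at which a region was also listed. A single one of 80 histone genes, H4C6, which encodes histone H4, had a region, centred 362 bp downstream of its start site in an H3K27ac peak of 575 counts.

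**Figure D1:**
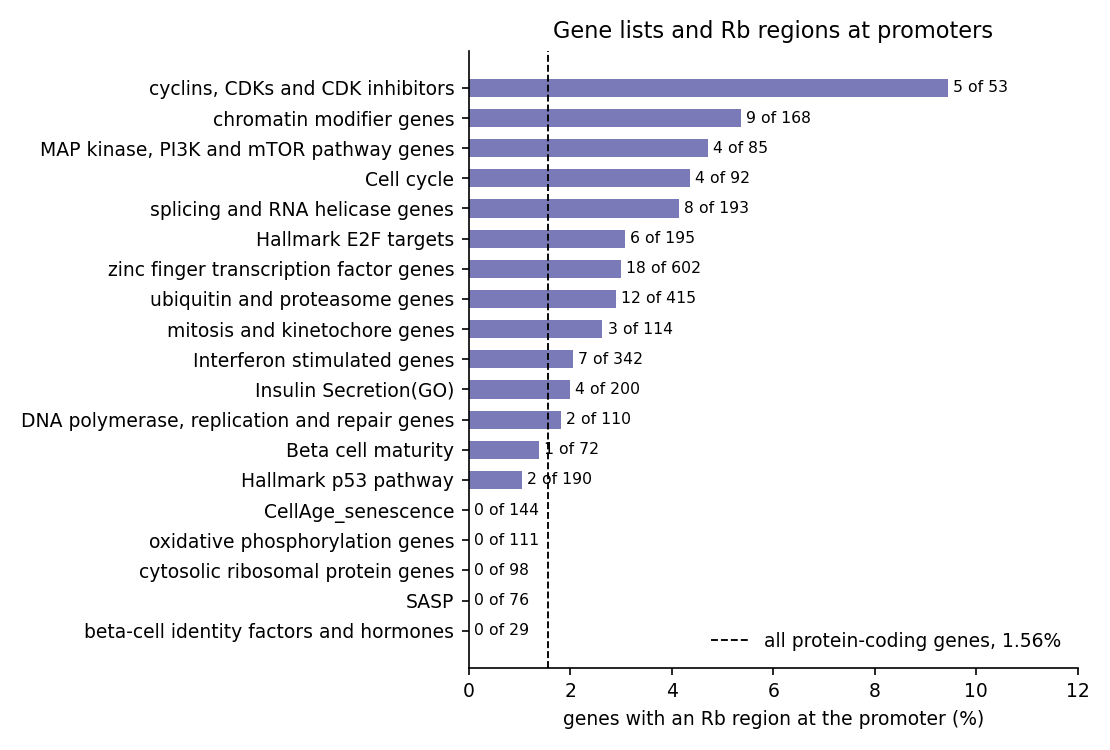
Share of the genes of 19 lists that had an Rb region at the promoter (bars, in percent, with counts of genes). The dashed line is the share of all protein-coding genes, 1.56%, with or without an H3K27ac peak. The lists with the highest shares hold few genes with a region, 5 of 53 for cyclins and related genes and 9 of 168 for chromatin modifiers, and 5 lists hold none.

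Genes of chromatin modifiers were the largest of these groups by share after the cyclins, with 9 of 168 (5.36%). One of the 9, KATNAL2, was caught by its symbol alone, since it encodes a katanin-like protein of microtubules and no histone acetyltransferase. The others were DNMT3A, a DNA methyltransferase, KMT2E and KMT5B of the lysine methyltransferase families, CBX6, a Polycomb protein, ARID1B, a subunit of the BAF remodelling complex, and BRD1, PHF2 and PHF20, which encode proteins with histone-binding domains. All 9 regions lay in H3K27ac peaks, with authors' means between 370 counts at KATNAL2 and 4501 counts at KMT2E and a median of 2095 counts. Those of KMT5B and KATNAL2 were also in CTCF peaks, of 201 and 50.0 counts. The regions at KMT2E and BRD1 lay away from the start site, centred 1518 bp upstream and 711 bp downstream, whereas those of DNMT3A and PHF20 were centred 151 and 170 bp downstream. The KMT2E region is shown whole because its E2F site, TTTGGCGC on the minus strand, lay 1644 bp upstream of the start site nearest to its centre.
KMT2E promoter, chr7:105012536-105012798: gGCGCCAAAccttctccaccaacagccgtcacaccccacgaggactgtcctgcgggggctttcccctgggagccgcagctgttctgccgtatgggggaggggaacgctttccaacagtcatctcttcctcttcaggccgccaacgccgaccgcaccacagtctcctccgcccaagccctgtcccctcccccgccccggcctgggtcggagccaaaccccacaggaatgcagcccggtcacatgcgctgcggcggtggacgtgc

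Genes of zinc finger transcription factors gave the largest number, 18 of 602 (2.99%) with 19 regions, of which 4 covered a start site. Their H3K27ac peaks had means from 104 to 11914 counts with a median of 838 counts, and 17 of the 19 regions lay in such a peak. The regions at ZNF217 and ZNF430 did not. Splicing and RNA helicase genes had 8 of 193 (4.15%), among them SF3B3, a component of the U2 snRNP, SRSF6, a splicing factor rich in serine and arginine, RBM39 and DDX17. Ubiquitin and proteasome genes had 12 of 415 (2.89%), with CUL1, the scaffold of SCF ubiquitin ligases, RNF2, the catalytic subunit of Polycomb repressive complex 1, and UBE2E1. Genes of the MAP kinase, PI3K and mTOR pathways had 4 of 85 (4.71%), namely MAPK8 and MAPK10, which encode Jun kinases, PIK3R4 and TSC1. None of 98 cytosolic ribosomal protein genes, 111 oxidative phosphorylation genes or 136 genes listed by symbol for RNA polymerase II, Mediator and general factors had a region. The share of all genes, 1.56%, would give few genes in lists of these sizes. The last of these lists is not complete. It did not hold CCNC, the cyclin gene of the Mediator kinase module, which had a region.

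In the signatures of beta cell function and of senescence, shares lay near the 1.56% of all genes or the lists were short. In the beta cell maturity list 1 of 72 genes (1.39%) had a region, PCSK2, which encodes a convertase that processes proinsulin and proglucagon. This region of 222 bp covered a start site in an H3K27ac peak of 2017 counts and a CTCF peak of 99.0 counts, and held CCAAT boxes 114 and 56 bp upstream of the start site.
PCSK2 promoter, chr20:17226903-17227069: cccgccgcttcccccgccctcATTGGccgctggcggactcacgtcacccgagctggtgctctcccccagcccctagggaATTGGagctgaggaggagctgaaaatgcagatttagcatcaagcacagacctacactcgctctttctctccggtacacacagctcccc
None of 29 beta cell identity factors and hormones had a region. The insulin secretion list had 4 of 200 (2.00%), CAMK2N1, KIF5B, PER2 and PFKL. Of 342 interferon-stimulated genes 7 had one (2.05%), including ADAR, an RNA-editing enzyme, and IFNLR1, a receptor subunit for lambda interferons. The p53 pathway had 2 of 190, PERP, a membrane protein induced by p53, and SLC19A2, a thiamine transporter. No region was listed at any of 144 CellAge senescence genes, 76 genes of the senescence-associated secretory phenotype or 17 genes of MHC-I antigen presentation. Of all 308 genes, 213 were in none of the lists.

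The regions at promoters were narrow and close to the start site. Their median width was 257 bp, with quartiles of 221 and 327 bp and a range from 6 to 949 bp, and 17 were under 100 bp wide. The widest lay at KCTD3 (949 bp), HDGFL3 (887 bp), NR4A2 (757 bp), ABL1 (693 bp), MRPL23 (679 bp), PCBP1 (658 bp), C14orf39 (635 bp), FBXL5 (624 bp) and MYO5C (600 bp). The edge of a region lay at a median of 63.5 bp from the nearest start site, 156 regions (55.3%) came within 100 bp of one, 251 (89.0%) within 500 bp and 270 (95.7%) within 1 kb, although the rule allowed 2 kb. A start site of any transcript was covered by 93 regions (32.98%), which fell to 14.9% when 1 canonical start site per gene was counted. The centres lay at a median of 78 bp downstream, with 173 of 282 (61.3%) downstream of the start site and 130 between 0 and 300 bp downstream. By annotation, 118 centres lay in introns, 78 in untranslated exons, 38 in coding exons and 48 outside genes. Just inside the limit were the regions at ZNF217 (1981 bp), KCNMB3 (1917 bp) and CCNI (1630 bp), and just outside it those nearest to HTR2B (2057 bp), APBB2 (2116 bp) and TCF12 (2500 bp).

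In median base composition they resembled promoters and not the rest of the list. Because the rule chose them for lying at promoters, this contrast with the rest is not independent of the choice. The same holds for the contrasts in peak overlap below. The median GC content was 68.8%, against 38.6% for the dense and 35.0% for the scattered Rb regions, and 66.5% for windows of 257 bp placed 78 bp downstream of each of 19688 canonical start sites. The median ratio of observed to expected CpG was 0.814, compared with 0.387 and 0.168 in the rest of the list and 0.796 in the start-site windows. Start-site windows in an H3K27ac peak had medians of 69.65% GC and a CpG ratio of 0.878. A GC content of at least 50% was found for 87.62% of all start-site windows, 96.93% of those in an H3K27ac peak, and 248 of the 282 regions. The 34 others, including those at BRINP3, ZNF608, CCNI and PTPRC, lay farther out, at a median of 436 bp from a start site against 51.5 bp for the GC-rich ones, and 4 of the 34 covered a start site.

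**Figure D2:**
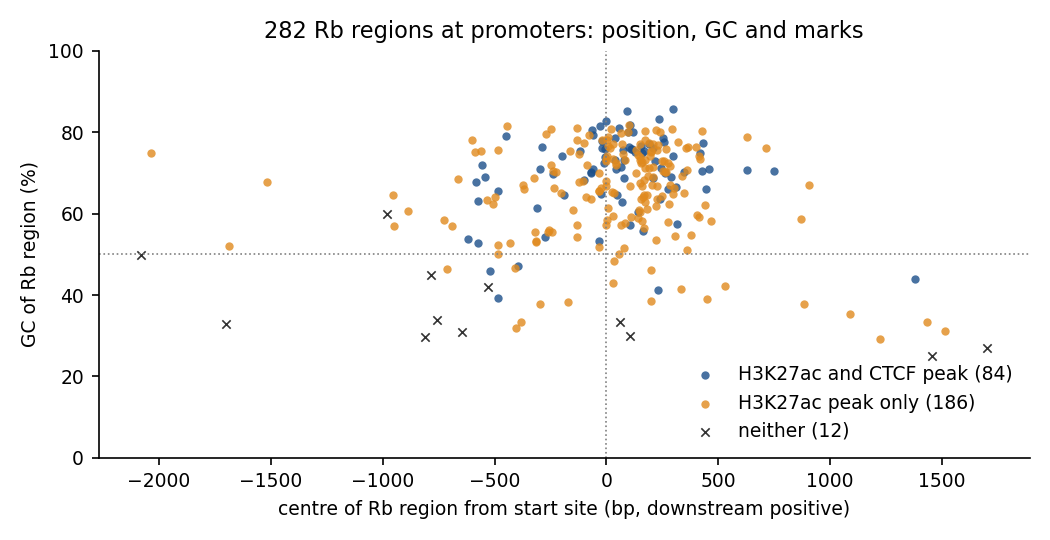
Each of the 282 regions by the distance of its centre from the start site (bp, downstream positive) and its GC content (percent), coloured by overlap with H3K27ac and CTCF peaks. Most regions crowd within 500 bp of the start site above 50% GC (dotted line), and the 12 in neither peak set have a median GC content of 33.1%.

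H3K27ac peaks overlapped 270 of the 282 regions, 95.7% (95% Wilson interval 92.7 to 97.6%), against 61.5% of the windows at all canonical start sites. With windows set at the same distances from canonical start sites as the 282 regions had from start sites of any transcript, 59.4% fell in a peak. Since canonical start sites are only some of these, such windows, here and below, lie closer to canonical start sites than the regions themselves. Away from promoters the overlap was 8.003% (6.58 to 9.71%) in the scattered and 0.101% (0.0178 to 0.569%) in the dense part of the Rb list. These intervals, like all those given here, cover counting error only. Among regions with at least 50% GC, 247 of 248 lay in an H3K27ac peak, compared with 68.0% of GC-rich start-site windows, and among the AT-rich ones 23 of 34 did. The intervals for the promoter regions and for the start-site windows did not overlap in the whole set or in its GC-rich part. By gene, 304 of the 308 (98.7%) had an H3K27ac peak in the promoter window, against 66.4% of all genes.

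**Figure D3:**
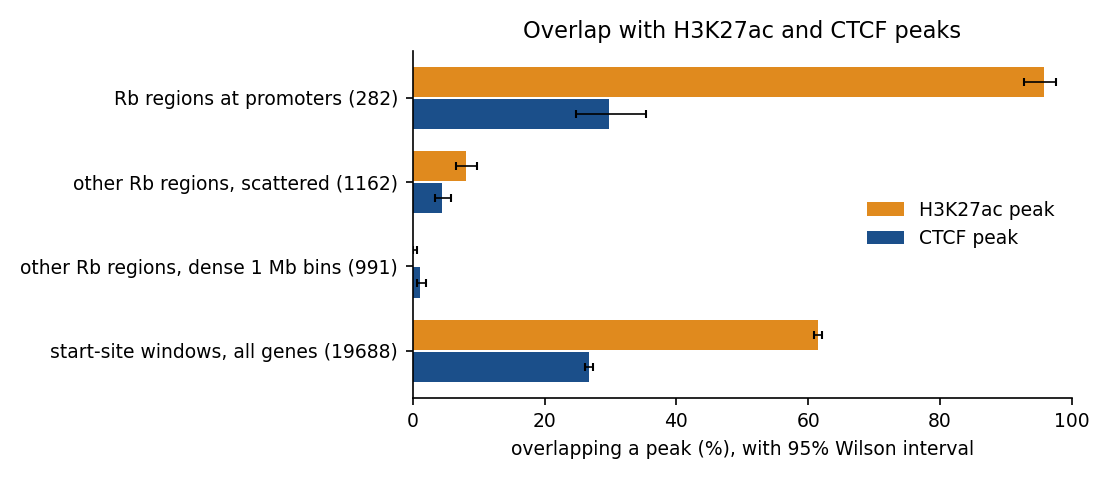
Share of Rb regions at promoters, of the other Rb regions and of 257 bp windows at canonical start sites that overlapped an H3K27ac or a CTCF peak (bars, percent; error bars, 95% Wilson interval). The promoter regions reach 95.7% for H3K27ac against 61.5% of start-site windows, whereas for CTCF both are near 30%.

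The H3K27ac peaks that held a promoter Rb region were also strong ones. The 264 peaks had a median authors' mean of 1178 counts (quartiles 672 and 2003), while the 13743 other peaks at promoters had a median of 436 counts (159 and 913). Per kb of peak the medians were 316 and 150 counts, with median peak widths of 3618 and 2698 bp, so that the difference was also seen per length. With all promoter peaks ordered by their mean and divided into 4 groups of like size, an Rb region was held by 0.0857% of the lowest group, 0.857% and 1.97% of the middle ones and 4.63% of the highest, or 3, 30, 69 and 162 peaks. The highest were those at PER2 (22139 counts), a component of the circadian clock, ZNF608 (11914 counts), PTMA (11171 counts), which encodes prothymosin alpha, SCARB2 and FAM47E (10299 counts), BRINP3 (7906 counts), MRPL23 (7857 counts), the transcription factor gene MEF2D (7015 counts) and NR4A2 (6504 counts), which encodes an orphan nuclear receptor. The lowest, of 39.5 counts, was at the olfactory receptor gene OR3A2. Within the peaks the regions lay centrally, 90.4% nearer to the centre of the peak than to its edge and at a median of 330 bp from its centre. The rule chose regions near start sites, so this placement is not independent of the choice. The like share for start-site windows was not taken. The Rb list thus moved with the H3K27ac level of promoters, whose part in the Rb calls was not tested.

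**Figure D4:**
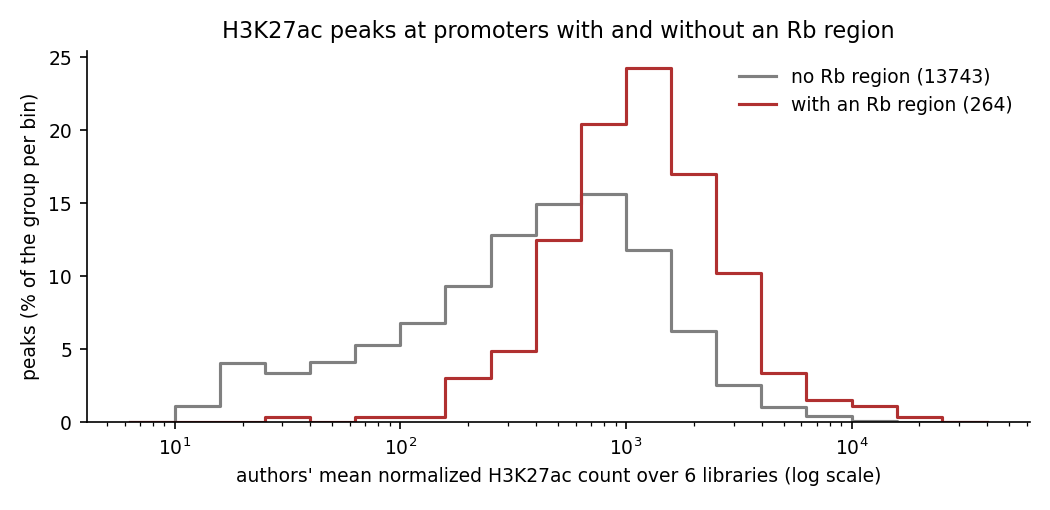
Authors' mean normalized H3K27ac count of promoter peaks (log axis) as the percentage of peaks per bin, for the 264 with an Rb region and the 13743 without. The peaks with an Rb region have a median of 1178 counts, against 436 counts for the others.

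Only 12 regions lay in no H3K27ac peak, and none of them lay in a CTCF peak. They were at PTPRC, TEX50, SLC16A7, AGAP2, PLEKHA5, CCNI, SYCP2, ZNF217, ZNF430 and CPLANE1, and a pair of them at RAB28. Their median GC content was 33.1%, their median width 182 bp and their median distance from a start site 720 bp. PTPRC, which encodes the leukocyte antigen CD45, is a marker of immune cells, and its region lay 1350 bp from the start site in an intron with a GC content of 25.1%. At SYCP2, a gene of the meiotic synaptonemal complex, the region covered an annotated start site, with a GC content of 29.8%.

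CTCF peaks overlapped 84 regions, 29.8% (24.7 to 35.4%), with the 26.7% of windows at all canonical start sites inside its interval. Over the whole promoter window of 2 kb on either side, 58.8% (53.2 to 64.1%) of the 308 genes had a CTCF peak, against 47.6% (46.9 to 48.3%) of all genes. In the same window 98.7% of the 308 genes had an H3K27ac peak, against 66.4% of all genes. For this window the CTCF share among marked genes alone was not taken. All 84 were in an H3K27ac peak too, so that 186 regions lay in H3K27ac alone. Among H3K27ac-marked start sites 37.3% of windows overlapped a CTCF peak, and 32.9% at the distances of the regions, against 31.1% (25.9 to 36.9%) of the promoter Rb regions in H3K27ac peaks. The interval of the promoter Rb regions includes the share at the same distances. The 84 CTCF peaks had a median authors' mean of 68.5 counts, beside 57.6 counts for the other CTCF peaks at promoters, and 31 of them were under 50 counts. The strongest were at PTMA (1062 counts), LRRC37A3 (614 counts), FAM174B (520 counts), YARS2 (432 counts), SYT17 (401 counts), the CTCF gene itself (393 counts), GUCY1A2 (383 counts), ZNF3 (375 counts), SCAF11 (342 counts) and RGPD8 (334 counts). PTMA was thus among the strongest for both marks. In the rest of the Rb list, CTCF peaks overlapped 4.47% of the scattered and 1.11% of the dense regions.

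Listed enhancers, which the authors defined outside promoters, overlapped 7 regions in the senescent list (2.48%) and 6 in the non-senescent list (2.13%), with intervals of 1.21 to 5.03% and 0.979 to 4.56%. Of the windows at all canonical start sites, 0.361% and 0.381% overlapped one. These windows lay next to canonical start sites, and the share at the distances of the regions was not taken. Those at FAM174B, CLN6, CHST9, TRAK1, CLASP2 and PRRC2B were in both lists, and that at BCAS3 was in the senescent list alone. The BCAS3 region lay in a weaker H3K27ac peak, of 276 counts, and 81.1% of its 32-base words recurred elsewhere in the genome.

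E2F sites, written as TTTCCCGC, TTTGGCGC, TTTCGCGC or TTTGCCGC on either strand, were found in 24 of the 282 regions as listed (8.51%). In windows of 257 bp centred on each region the share was 6.74% (4.36 to 10.3%), while windows at the same distances from all start sites held one in 2.57% and those at H3K27ac-marked start sites in 3.34%. Windows placed 78 bp downstream of every H3K27ac-marked start site held one in 3.82%. The shorter E2F core, TTCCCGC or TTGGCGC, which is contained in the first and second of these spellings, gave 15.96% (12.1 to 20.7%) against 8.17% and 10.3% at the same distances, and 12.02% in the windows 78 bp downstream of marked start sites. Most promoter Rb regions therefore held no match to either. TTTCCCGC was the spelling of 13 of the 24 sites, which lay between 2097 bp upstream and 721 bp downstream of the start site, 6 of them within 100 bp of it. All 24 regions lay in H3K27ac peaks and 8 in CTCF peaks, and 9 covered a start site. The median authors' H3K27ac mean was 833 counts for regions with a site and 1204 counts for those without. The CDK1 region was the only one with both an E2F site and a CHR element.

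E2F sites were also found at genes outside the cell cycle and E2F lists, and 2 of these regions are shown whole. THUMPD2 encodes a protein with a THUMP domain and ZMYND19 a protein with a MYND zinc finger.
THUMPD2 promoter, chr2:39778951-39779178: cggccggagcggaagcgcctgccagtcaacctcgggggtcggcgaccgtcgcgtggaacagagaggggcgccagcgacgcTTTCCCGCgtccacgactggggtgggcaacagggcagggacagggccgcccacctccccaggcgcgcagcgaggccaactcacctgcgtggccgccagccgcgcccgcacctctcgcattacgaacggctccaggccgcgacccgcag
ZMYND19 promoter, chr9:137590708-137590913: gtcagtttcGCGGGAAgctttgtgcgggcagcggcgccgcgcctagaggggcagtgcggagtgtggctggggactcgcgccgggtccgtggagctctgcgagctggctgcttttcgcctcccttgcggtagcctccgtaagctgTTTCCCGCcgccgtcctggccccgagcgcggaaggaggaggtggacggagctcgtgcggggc
The site in THUMPD2, TTTCCCGC, lay 223 bp downstream and that in ZMYND19, TTTCCCGC, 344 bp upstream of the start site, where a core on the other strand lay 208 bp upstream. Their H3K27ac peaks had means of 372 and 203 counts.

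For several other promoter elements the comparison depended on where the windows at H3K27ac-marked start sites were placed, so both placements are given, first 78 bp downstream of every start site and then at the same distances as the regions. The GC box GGGCGG, bound by Sp1-type factors, was in 57.8% (52.0 to 63.4%) of the Rb windows, beside 66.6% and 52.9%. CCAAT was in 15.6% (11.8 to 20.3%) beside 16.1% and 21.4%. The CHR element TTTGAA or TTCGAA was in 6.38% (4.08 to 9.86%) beside 6.23% and 9.89%, and the YY1 core AAGATGG in 7.80% (5.21 to 11.5%) beside 7.65% and 5.01%. Below both placements were the ETS core CCGGAAG, in 5.32% (3.25 to 8.59%) beside 15.4% and 8.76%, and the E-box CACGTG, in 2.48% (1.21 to 5.03%) beside 5.99% and 5.25%. The NRF1 element GCATGCGC was in none of the 282 windows, with an upper Wilson bound of 1.34%, beside 2.78% and 2.04%. These shares are matches of letters and do not show that a factor is bound.

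**Figure D5:**
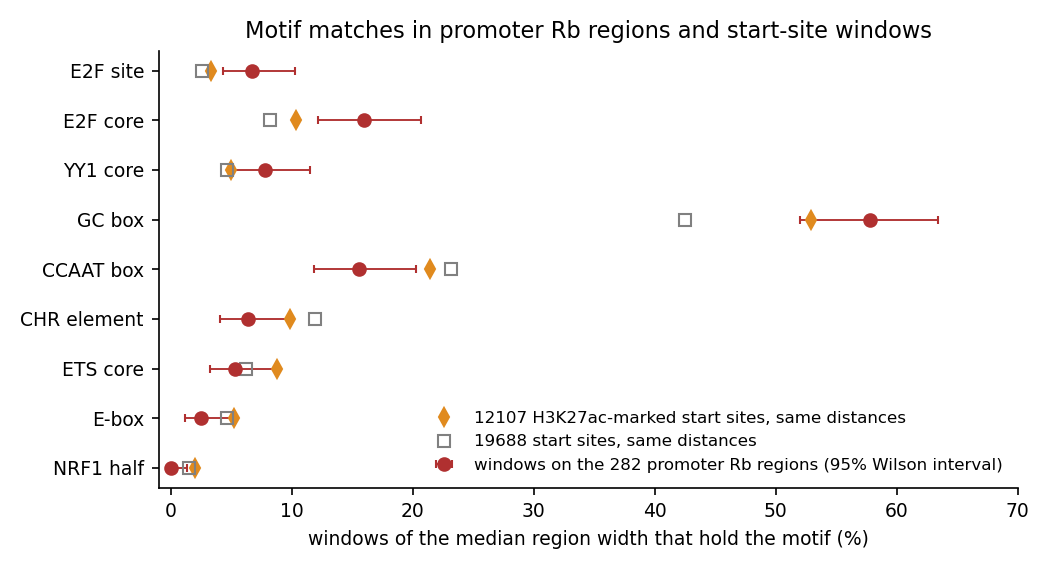
Percentage of 257 bp windows that held each motif, for windows centred on the 282 promoter Rb regions (circles, 95% Wilson interval) and for windows at the same distances from H3K27ac-marked (diamonds) or all (squares) start sites. The E2F site stands at 6.74% in the Rb windows against 3.34% at marked start sites, and the ETS core at 5.32% against 8.76%.

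Several regions lay at pairs of genes on opposite strands whose start sites were close together. Of the 308 genes, 62 (20.1%, 16.03 to 24.96%) had a partner on the opposite strand whose start site lay within 1 kb, beside 15.7% of all genes and 22.2% of genes with an H3K27ac peak in the promoter window, and its interval includes the share of the marked genes. A region was shared by both genes in 26 pairs. The closest pairs were BRF1 and BTBD6, with start sites 1 bp apart, HDLBP and SEPTIN2 (3 bp), KATNAL2 and PIAS2 (11 bp), HIBCH and INPP1 (29 bp), RIBC1 and SMC1A (36 bp) and NSL1 and TATDN3 (46 bp). BRF1 encodes a subunit of the RNA polymerase III initiation factor, and NSL1 a kinetochore protein. Their shared H3K27ac peaks ranged from 370 counts at KATNAL2 and PIAS2 to 4790 counts at HDLBP and SEPTIN2. For such pairs, position alone does not say to which gene a region belongs.

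More than 1 region lay at the promoters of 8 genes, BRINP3, FAM174B, NR4A2, RAB28, RAP1GDS1, RBM39, YWHAZ and ZNF608. At NR4A2, regions of 757 and 287 bp lay in 1 H3K27ac peak of 13009 bp, each next to a different annotated start site. At ZNF608, regions of 249 and 537 bp had GC contents of 33.3 and 38.6%, low for a promoter, in a peak of 22414 bp. At RBM39 the regions were centred 171 bp downstream and 521 bp upstream of the annotated start site nearest to each.

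Sequence shared with other places in the genome was limited. No 32-base word recurred elsewhere in 254 of the 282 regions, and in 6 regions, at BCAS3, TLK2, LRRC37A3, RGPD8, ZNF217 and PIK3R4, at least 50% of the words did. LRRC37A3 and RGPD8 belong to families of near-identical copies, so their Rb and CTCF positions are uncertain, as are the Rb positions at ZNF217 and PIK3R4, where all words recurred.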

How the data were processed

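ChIP-seq of EndoC-βH3 cells was grouped from the labels by antibody and state (Rb and H3K4me1, 2 and 2 libraries; H3K27ac and CTCF, 3 and 3), each with input. The authors trimmed reads, aligned them with Bowtie2 to hg38, used HOMER for the peaks of both histone marks and MACS2 for CTCF, with input as control, and called senescence-specific Rb regions with MACS2 at an unadjusted p of 0.01 with the non-senescent libraries as control. Versions and the handling of replicates are not given in the sources used here. Per the methods, CTCF peaks were filtered for a motif. The deposited signal used is the authors' mean over libraries of reads after scaling by DESeq2's factors. The deposited columns of fold changes, standard errors, Wald statistics and p-values hold the authors' own comparison and were not used. The other deposited files are lists of positions.

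Overlaps of at least 1 bp were counted with Python 3.11.15, pandas 2.3.3, numpy 2.4.6 and pysam 0.24.0, after a check on simulated regions. Shares carry 95% Wilson intervals (scipy 1.17.1), which cover counting error only. Start sites were those of protein-coding transcripts of GENCODE 44. Windows at canonical start sites had the median width and offset of the regions. The comparison at the same distances averaged, over the distances of the 282 regions, the share among all canonical start sites, and was added after seeing the data. Those distances were to the nearest start site of any transcript and were laid around canonical ones. Genes were named by rule: members of the cell cycle, E2F, p53, beta cell maturity, licensing, repair, mitosis, histone and chromatin lists, the 10 highest in H3K27ac, CTCF and width (a Y-linked gene left out), genes with 2 regions, the 10 closest facing pairs and those next to the 2 kb limit. Other names were chosen after their values were seen. Symbol lists match patterns, which also caught KATNAL2 and, among multi-copy families, TBC1D30. They also missed genes of a kind, such as CCNC for Mediator and NSL1 for the kinetochore, so a count is that of the list alone. The members, lists and motifs were chosen with earlier results of these data known. No test between states was run, since the tables hold no value per library and the authors' comparison was not used, and alternatives for windows, overlaps, peaks and motifs are given in the closing section.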

Additional observations from a re-analysis of the deposited data

How the results depend on the processing

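Of 31 alternative settings over 11 results, 25 left the value within 1.5 times for counts or within its 95% interval for shares and medians, and 6 moved it. With windows of 1 kb or 500 bp, 1 canonical start site per gene, or most of the region required inside, 247 to 280 regions and 266 to 306 genes remained beside 282 and 308. The share in an H3K27ac peak rose from 95.7 to 99.6% among regions of at least 50% GC, an alternative chosen after seeing the data. The share in a CTCF peak fell from 29.8 to 18.8% when peaks needed a mean of at least 50 counts, and was 39.7% when a peak within 500 bp counted. The median H3K27ac count of 1178 per peak is 316 per kb of peak, a change of unit. An E2F match was held by 16.7% with the 2 spellings of 7 letters in place of 8.51%. A start site was covered by 14.9% instead of 32.98% of regions when 1 canonical start site per gene was used.

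No paired analysis was possible because the tables hold no value per library, and for the same reason leaving out each replicate in turn was not run. The Rb list was called at an unadjusted threshold with no heights, so weaker and stronger regions cannot be told apart, and the files give no read count for a region.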
